A study of Mus musculus domesticus and Mus musculus domesticus x Mus musculus castaneus and Mus musculus castaneus with 27 samples.

Results

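Motor neurons of the CAS129 hybrid mouse line (3 RNA sequencing libraries) were compared with motor neurons of the BL6 line (7 libraries). These 10 libraries were chosen by the names of their columns in the deposited count table, out of 20 libraries with a matched column and 27 samples in the series. The series sequenced mouse pluripotent stem cells (PSC) and motor neurons (MN) made from such cells, to describe the transcriptional identity of lines used for a neurite growth model. CAS129 is labelled as an F1 hybrid of the domesticus and castaneus subspecies, and the design text gives its parents as CAST and 129, that is CAST/EiJ and 129S6/SvEv. BL6 is labelled C57BL/6, which the design text gives as C57BL/6J, an inbred domesticus strain. No treatment, transgene, sex, time point or age is labelled for either group, and the way the cells were differentiated, selected or sorted is not described in the sources used. The remaining motor neuron libraries are 2 of strain 129, 1 of strain CAST and 1 of the hybrid labelled 129CAS, and they serve only as reference levels. Genes with 0 counts in all 3 CAS129 libraries, 10679 of 27071, were set apart and are described at the end.

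Spinal motor neurons are cholinergic cells that drive muscle. When stem cells are turned into them in culture, the stem cell network around Pou5f1, Sox2 and Esrrb is shut down, division stops, and genes for the neuronal cytoskeleton, synapse and ion channels switch on. Motor neuron identity is then set by homeodomain factors such as Isl1 and Mnx1, and acetylcholine is made by the enzyme Chat. Stem cell and cell division transcripts in such a culture are therefore read as markers of undifferentiated or dividing cells, and neuronal transcripts as markers of neurons.

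The CAS129 libraries held 5612575 to 6294099 counts and the BL6 libraries 7599737 to 10364807. Levels are CPM, a gene's count relative to the library total, with totals scaled by TMM factors over 14 motor neuron libraries. Across 14837 genes, log2 levels correlated at 0.976 to 0.983 among CAS129 libraries, 0.927 to 0.985 among BL6 libraries and 0.673 to 0.74 between the groups. The first principal component, with 58.9% of the variance, placed the CAS129 libraries at 181.38 to 189.26 and the 129CAS library at 148.11, and the other motor neuron libraries at -90.79 to -39.48. The 14837 genes include 916 of those set apart. The correlations between the groups and this component thus rest in part on the 0 counts that chose these genes. Whether a group's libraries came from separate cultures is not in the labels, so the p-values speak only to the spread among these libraries, and that spread may be technical. The labels name no batch for these libraries either. The spread was uneven. By chi-square per degree of freedom, near 1 for counting error alone, BL6 pairs ran from 2.96 (libraries 5 and 6) to 120.66 (libraries 2 and 3). BL6 libraries 3 and 4 were at 9, and CAS129 pairs ran from 3.38 to 7.66. The fit took all libraries of a group as equal replicates. In bulk RNA, fewer cells of a type and less RNA per cell cannot be told apart.

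Of the 14837 genes tested, 59.5% were called at an adjusted p under 0.05, 27% higher in CAS129 (4009 genes) and 32.5% lower (4826 genes). Each adjusted p printed is Benjamini-Hochberg adjusted over all genes tested and comes from the quasi-likelihood test of edgeR. Every CAS129 library stood above every BL6 library in 24% of genes and below every BL6 library in 27.2%. These shares and the shares called are the background for the counts of list members below. They include the 916 genes set apart that were tested, 811 of them called, while the lists leave such genes out. The 0 counts that chose these genes raise the shares lower. In a fit without them, 13947 genes were tested, with 3974 called higher and 3981 lower. The median log2 fold change (CAS129 minus BL6) was -0.0823 over all genes tested and -0.006 over the 13921 not set apart. Upper-quartile scaling moved the median over all genes tested from -0.082 to 0.065, and the call counts from 4009 higher and 4826 lower to 4881 and 4209.

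Stem cell and cell division markers were higher in the CAS129 motor neurons, and neuronal markers were lower. Pou5f1, the POU factor that holds cells pluripotent (ENSMUSG00000024406, chromosome 17, 35506018 to 35510772), stood at 170.4, 169.7 and 62.2 CPM in CAS129 libraries 1, 2 and 3. In BL6 it ran from 0.401 to 1.71 CPM (median 1.37). Every CAS129 library was above every BL6 library (log2 fold change 6.82, SE 0.36, adjusted p = 3.8e-09). Top2a, the topoisomerase of dividing cells (ENSMUSG00000020914, chromosome 11, 98992943 to 99024189), stood at 272, 317 and 145 CPM in CAS129 and 4.66 to 32.5 CPM (median 9.72) in BL6. These groups did not overlap either (log2 fold change 3.96, SE 0.49, adjusted p = 1.7e-05).

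Syp, a synaptic vesicle membrane protein (ENSMUSG00000031144, chromosome X, 7638471 to 7653256), stood at 12.1, 21.8 and 23.3 CPM in CAS129 and 131 to 549.6 CPM (median 274) in BL6. All 3 CAS129 values lay below the lowest BL6 value (log2 fold change -3.99, SE 0.52, adjusted p = 2.6e-05). Stmn2, a microtubule regulator of growing axons (ENSMUSG00000027500, chromosome 3, 8509360 to 8561606), stood at 83.3, 86.5 and 88 CPM in CAS129 and 343 to 1156 CPM (median 655) in BL6. Its CAS129 values were close together and again below all BL6 values (log2 fold change -2.92, SE 0.36, adjusted p = 1.6e-05). In the 129CAS library, Pou5f1 was at 0 CPM and Top2a at 4.07 CPM, while Syp was at 82.1 CPM and Stmn2 at 187 CPM. The 129CAS library was thus below every BL6 library in all 4 genes, and above every CAS129 library in Syp and Stmn2.

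**Figure D1:**
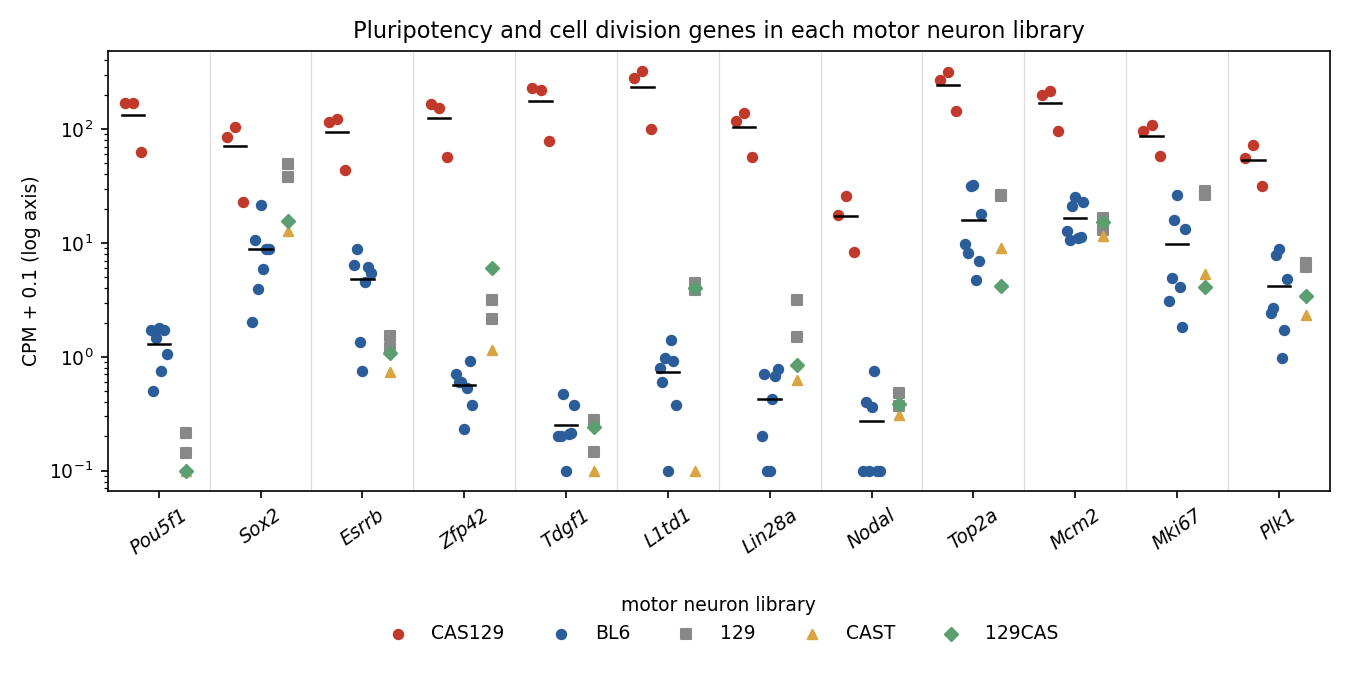
Levels of 12 pluripotency and cell division genes in each of 14 motor neuron libraries, in CPM plus 0.1 on a log axis. Points are libraries, coloured by group, and black lines are the means of CAS129 (3 libraries) and BL6 (7 libraries). In all 12 genes the CAS129 libraries lie above every BL6 library, and in each gene the third CAS129 library is the lowest of its group.

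Of the 24 naive and core pluripotency genes tested, 20 were higher in CAS129 and 0 were lower, against 27% higher over all genes tested. Their median log2 fold change was 6.58, or 6.41 with Tcl1, which is at 0 in BL6, held at its lower bound. In 20 of the 24, every CAS129 library was above every BL6 library, against 24% over all genes tested. Summed over the list, levels ran from 734 to 1910 CPM in CAS129 and from 120 to 262 CPM in BL6.

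Tdgf1, the Nodal co-receptor of stem cells, stood at 229, 222 and 78.3 CPM in CAS129 and 0 to 0.374 CPM (median 0.108) in BL6 (log2 fold change 10.13, SE 0.43, adjusted p = 5.3e-10). L1td1, an RNA-binding protein of stem cells, stood at 282, 325 and 101 CPM against 0 to 1.3 CPM (median 0.702) (log2 fold change 8.47, SE 0.43, adjusted p = 2.3e-09). Zfp42, a zinc finger gene used as a marker of naive stem cells, stood at 167, 153 and 56.4 CPM against 0.131 to 0.811 CPM (median 0.499) (log2 fold change 8.02, SE 0.36, adjusted p = 8.3e-10). In each of these 3 genes the first 2 CAS129 libraries were more than 2 times the level of the third, and the third was still above all BL6 libraries.

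Sox2, a partner factor of Pou5f1 that neural progenitors also use, stood at 84.6, 104 and 22.8 CPM in CAS129 and 1.9 to 21.3 CPM (median 8.68) in BL6 (log2 fold change 3.03, SE 0.53, adjusted p = 0.0003). CAS129 library 3 was just above the highest BL6 library. Esrrb, an orphan nuclear receptor of naive cells, stood at 114, 123 and 43.5 CPM against 0.657 to 8.82 CPM (median 5.37) (log2 fold change 4.30, SE 0.49, adjusted p = 8.2e-06). Sall4, a zinc finger factor of stem cells, had a log2 fold change of 6.95, and Dppa3, a gene of naive and germ cells, one of 5.11 from a low level of 3.72, 2.83 and 4.42 CPM in CAS129.

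The 4 genes of the list that were not called were the Kruppel-like factors Klf2, Klf4 and Klf5 and the T-box factor Tbx3. Klf4 stood at 69.9, 89.7 and 63.6 CPM in CAS129 and 22.5 to 93.8 CPM (median 64.9) in BL6 (log2 fold change 0.16, SE 0.31, adjusted p = 0.68). Klf2 stood at 49.2, 51.5 and 40.3 CPM against 28.2 to 71.7 CPM (median 60) (log2 fold change -0.21, SE 0.27, adjusted p = 0.53), and Tbx3 at 50, 53.5 and 40.1 CPM against 28.5 to 55.1 CPM (median 47) (log2 fold change 0.09, SE 0.18, adjusted p = 0.68). The groups overlapped in all 4 genes. Klf5 passed the threshold without BL6 library 5 (log2 fold change 0.68, adjusted p = 0.028) and with a replicate block (log2 fold change 0.83, adjusted p = 0.034).

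The hybrid motor neurons held only part of the stem cell level. On a TMM scale over 20 libraries, the CAS129 motor neuron mean was 1.9% (Dppa3) to 54.5% (L1td1) of the CAS129 stem cell mean (2 libraries) over the 24 genes, with a median of 17.6%. For Pou5f1 it was 16.0%, from 140.285 CPM in motor neurons and 770.931 and 985.102 CPM in the 2 stem cell libraries. Of the 20 higher genes, all 20 were lower in the 129CAS library and in the CAST library than in any CAS129 library, and 19 were lower in both 129 libraries.

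Formative and primed pluripotency genes, which mark the state after naive, moved mostly the same way, with 10 of 15 higher and 2 lower, and a median log2 fold change of 3.30. Cdh1, the epithelial cadherin, stood at 125, 131 and 71.2 CPM in CAS129 and 1.87 to 29.8 CPM (median 3.55) in BL6 (log2 fold change 3.30, SE 0.68, adjusted p = 0.001). Strain 129 motor neurons had it at 186 and 128 CPM, no lower than most CAS129 values. Epcam, an epithelial adhesion molecule, went with it (39.6, 36.5 and 18.4 CPM against 1.1 to 9.73 CPM (median 2.87), log2 fold change 2.82, SE 0.52, adjusted p = 0.00044). Nodal, a TGF-beta family ligand of stem cells and early embryos, stood at 17.6, 25.8 and 8.31 CPM against 0 to 0.651 CPM (median 0) (log2 fold change 6.52, SE 0.66, adjusted p = 2.6e-06).

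Otx2, T and Foxd3 were at 0 in all 7 BL6 libraries, and Foxd3, a forkhead factor of stem cells and neural crest, stood at 13.3, 15.5 and 7.07 CPM in CAS129. Foxd3 also had 0 counts in both BL6 stem cell libraries, against 92.4 and 40.9 CPM (plain CPM) in the CAS129 stem cells, while Otx2 and T had 832 and 32 counts over the BL6 stem cell libraries. The 2 lower genes were Pou3f1, a POU factor that neurons also use (log2 fold change -2.34, SE 0.42, adjusted p = 0.00039), and Dnmt3a, a methyltransferase of new DNA marks (log2 fold change -0.74, SE 0.21, adjusted p = 0.009). The Dnmt3a call was lost without CAS129 library 3 (log2 fold change -0.56, adjusted p = 0.057). With the stricter filter 9 genes of this list were tested, 5 higher and 2 lower. Among the RNA-binding and chromatin genes of the Lin28, Igf2bp and Hmga families, 3 of 5 were higher. Lin28a, which blocks maturation of let-7 microRNA, stood at 118, 138 and 56.4 CPM against 0 to 0.689 CPM (median 0.325) (log2 fold change 8.27, SE 0.48, adjusted p = 1e-08). Igf2bp1, an mRNA-binding protein of the embryo, had a log2 fold change of 2.13 and Lin28b one of 1.71.

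Of 25 replication and mitosis genes, 24 were higher in CAS129 and 0 lower, with a median log2 fold change of 3.21. In 22 of them every CAS129 library was above every BL6 library, against 24% over all genes tested. Summed levels ran from 1250 to 2550 CPM in CAS129 and from 276 to 827 CPM in BL6, and the 129CAS library was at 244 CPM. Mcm2, a subunit of the replicative helicase, stood at 198, 214 and 96.7 CPM in CAS129 and 10.5 to 25.1 CPM (median 12.6) in BL6 (log2 fold change 3.39, SE 0.30, adjusted p = 7.3e-07). Mcm6, of the same helicase, stood at 146, 172 and 79 CPM against 24.3 to 33 CPM (median 32.1) (log2 fold change 2.13, SE 0.18, adjusted p = 5.2e-07). Rrm2, which supplies deoxynucleotides, stood at 187, 224 and 106 CPM against 13.4 to 59.7 CPM (median 25.1) (log2 fold change 2.39, SE 0.41, adjusted p = 0.00027).

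Mki67, a marker of cycling cells, stood at 95.5, 109 and 57.4 CPM against 1.74 to 26 CPM (median 4.81) (log2 fold change 3.18, SE 0.59, adjusted p = 0.00047). Plk1, a mitotic kinase, stood at 55.5, 73 and 31.6 CPM against 0.868 to 8.68 CPM (median 2.61) (log2 fold change 3.73, SE 0.50, adjusted p = 3.1e-05). Cyclin D1 (Ccnd1) was the exception. It stood at 232, 191 and 149.9 CPM in CAS129 and 69.9 to 393 CPM (median 229.7) in BL6, and the groups overlapped (log2 fold change -0.15, SE 0.40, adjusted p = 0.77). In the 129CAS library, the CAST library and both 129 libraries, all 24 of the higher genes lay below the lowest CAS129 library.

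The 3 CAS129 libraries were ordered in opposite ways for these genes and for neuronal ones. Library 3 was the lowest of the 3 in 23 of 24 pluripotency genes and in 25 of 25 replication and mitosis genes. Library 1 was the lowest in 22 of 24 pan-neuronal genes and in 24 of 32 synaptic genes, while library 3 was the highest in 19 and in 24 of them. Over the 13921 genes tested and not set apart, libraries 1, 2 and 3 were the lowest in 32.6%, 29.0% and 38.5%. The libraries of a group have no order of their own, and these counts describe only how the 3 differ.

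Pan-neuronal genes were lower as a group. Of 24 tested, 23 were lower in CAS129 and 0 higher, against 32.5% lower over all genes tested, with a median log2 fold change of -1.48. In 19 of them every CAS129 library was below every BL6 library, against 27.2% over all genes tested. Summed levels ran from 3630 to 4340 CPM in CAS129 and from 8040 to 20600 CPM in BL6, so that the highest CAS129 library was under the lowest BL6 library. The CAST library was at 21300 CPM, the 129CAS library at 15700 CPM and the 129 libraries at 9590 and 13000 CPM.

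Nefl and Nefm are the light and medium chains of neurofilaments, the intermediate filaments of axons. Nefl stood at 191, 270.5 and 318 CPM in CAS129 and 1147 to 3520.4 CPM (median 1937) in BL6 (log2 fold change -2.92, SE 0.40, adjusted p = 4.1e-05). Nefm stood at 312, 388 and 425 CPM against 1612 to 4581 CPM (median 2577) (log2 fold change -2.79, SE 0.36, adjusted p = 2.1e-05). The neuronal tubulin Tubb3 was less far apart, at 268, 309 and 317 CPM against 417 to 1129 CPM (median 604) (log2 fold change -1.10, SE 0.27, adjusted p = 0.0038). In all 3 genes the groups did not overlap.

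Dcx, a microtubule-binding protein of young neurons, stood at 73.6, 100.5 and 104 CPM against 138 to 484 CPM (median 179.7) (log2 fold change -1.37, SE 0.39, adjusted p = 0.0086). Gap43, a growth cone protein, stood at 145, 167 and 217 CPM against 173 to 695 CPM (median 401), and its highest CAS129 library was above the lowest BL6 library (log2 fold change -1.14, SE 0.38, adjusted p = 0.02). The Gap43 call was lost without CAS129 library 1 (adjusted p = 0.087), without library 2 (adjusted p = 0.07) and with a replicate block (adjusted p = 0.066). Map1b, a microtubule protein of axons, stood at 1151, 1316 and 1196 CPM against 1470.1 to 3298 CPM (median 1859) (log2 fold change -0.69, SE 0.24, adjusted p = 0.023). Its call was lost under upper-quartile scaling (log2 fold change -0.54, adjusted p = 0.061) and when any CAS129 library was left out (adjusted p = 0.051 to 0.084). Ncam1, a neural adhesion molecule, was the member not called (343, 385 and 430.03 CPM against 346 to 613 CPM (median 542), log2 fold change -0.39, SE 0.19, adjusted p = 0.084). It passed without BL6 library 5 (adjusted p = 0.027) or 6 (adjusted p = 0.042) and with a replicate block (adjusted p = 0.026).

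**Figure D2:**
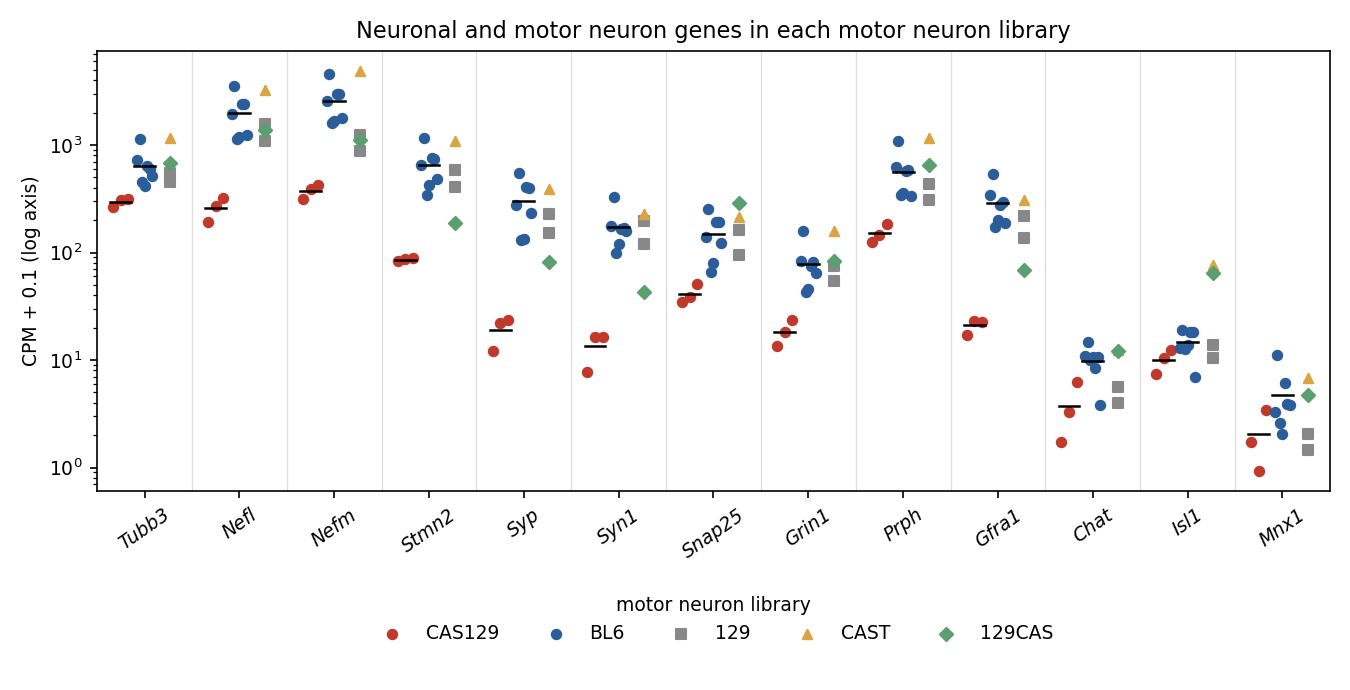
Levels of 13 neuronal and motor neuron genes in each of 14 motor neuron libraries, in CPM plus 0.1 on a log axis, with black lines at the CAS129 and BL6 means. Cytoskeletal, synaptic and receptor genes lie lower in all CAS129 libraries than in BL6, while Chat, Isl1 and Mnx1 overlap between the groups.

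Synaptic genes went the same way. Of 32 vesicle and release genes, 29 were lower and 0 higher, with a median log2 fold change of -1.41. Syn1, a phosphoprotein that tethers vesicles, stood at 7.61, 16.2 and 16.3 CPM in CAS129 and 99.3 to 327 CPM (median 165) in BL6 (log2 fold change -3.70, SE 0.41, adjusted p = 6.5e-06). Snap25, a SNARE protein of vesicle fusion, stood at 34.8, 38.3 and 50.7 CPM against 65.7 to 256 CPM (median 140.1) (log2 fold change -1.86, SE 0.40, adjusted p = 0.0014). The groups did not overlap in either gene.

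Syt4, a synaptotagmin, had a log2 fold change of -1.30, adjusted p = 0.0038, and Rab3c, a vesicle GTPase, one of -1.26, adjusted p = 0.0071. Atp6v0a1, a subunit of the proton pump that acidifies vesicles, was lower by less (182, 199 and 209.98 CPM against 225 to 411 CPM (median 293), log2 fold change -0.56, SE 0.17, adjusted p = 0.011), and its call was lost without CAS129 library 1 (adjusted p = 0.057). The 3 members not called were Stx1a (0.11, adjusted p = 0.7), Sv2c (-0.50, adjusted p = 0.14) and Syn3 (-0.22, adjusted p = 0.48). In the 129CAS library, all 29 lower genes stood above every CAS129 library, and 5 of them below every BL6 library. Dnm1, the neuronal dynamin, was the member with the largest fold (log2 fold change -6.45, SE 0.59, adjusted p = 9.9e-07). It was also low in the 129CAS library (4.35 CPM) and in the hybrid stem cells (2.72 and 4.45 CPM, against 34.6 and 43.8 CPM in BL6 stem cells). Stem cell levels of single genes are plain CPM, without TMM factors.

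Ion channel and transmitter receptor genes, which give neurons their excitability, were lower or not called. Of 40 ion channel genes, 28 were lower and 0 higher (median -1.31), and of 30 receptor genes, 22 were lower and 0 higher (median -1.69). Cacna1a, the P/Q-type calcium channel of release sites, stood at 30.4, 48.8 and 38.2 CPM in CAS129 and 75.7 to 184 CPM (median 103) in BL6 (log2 fold change -1.52, SE 0.25, adjusted p = 0.00019). Grin1, the obligatory NMDA receptor subunit, stood at 13.3, 18 and 23.5 CPM against 42.4 to 158 CPM (median 75.6) (log2 fold change -2.11, SE 0.39, adjusted p = 0.00048). Neither gene overlapped between the groups in its levels.

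Gria3, an AMPA receptor subunit (-2.38, adjusted p = 2e-07), and Grin2b, an NMDA receptor subunit (-1.64, adjusted p = 0.01), were also lower. Cacna1b, the N-type calcium channel, was lower (-1.26, adjusted p = 0.0085), and the call was lost without CAS129 library 1 (adjusted p = 0.051). Kcnk9, a leak potassium channel, had the largest fold of the named channels, at 1.13, 1.17 and 2.3 CPM against 56.6 to 271 CPM (median 145) (log2 fold change -6.44, SE 0.68, adjusted p = 3.6e-06). It was near 0 in the CAST library too (0.316 CPM) and low in the 129CAS library (2.19 CPM), and at 16.7 and 32 CPM in 129. Under upper-quartile scaling 2 channel genes and 1 receptor gene were called higher, with 25 and 19 lower, and without BL6 library 2 the same numbers were higher, with 28 and 20 lower.

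Motor neuron genes were more often lower than higher. Of 25 tested, 14 were lower in CAS129 and 4 higher (56% and 16%, against 32.5% and 27% over all genes tested). Their median log2 fold change was -1.26, and summed levels ran from 1070 to 1160 CPM in CAS129 and from 1300 to 3160 CPM in BL6. Several identity factors were among those not called. Isl2, another identity factor, was called lower by at least 8-fold, as Ache and Gfra1 were, and Lhx3 is among the genes set apart. Isl1, a LIM homeodomain factor, stood at 7.28, 10.3 and 12.4 CPM in CAS129 and 6.89 to 19 CPM (median 13.7) in BL6 (log2 fold change -0.54, SE 0.29, adjusted p = 0.12). It passed the threshold without BL6 library 7 (log2 fold change -0.66, adjusted p = 0.022). Mnx1, the homeodomain factor that defines motor neurons, was low in both groups (1.62, 0.833 and 3.36 CPM against 1.97 to 11 CPM (median 3.72), log2 fold change -1.26, SE 0.58, adjusted p = 0.079). It passed the threshold in DESeq2 (log2 fold change -1.25, adjusted p = 0.047), without CAS129 library 3 (log2 fold change -1.91, adjusted p = 0.04) and without BL6 library 4 (log2 fold change -1.39, adjusted p = 0.048).

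Chat, which makes acetylcholine, was low throughout, at 1.62, 3.17 and 6.19 CPM in CAS129 and 3.72 to 14.6 CPM (median 10.5) in BL6, and the groups overlapped (log2 fold change -1.43, SE 0.43, adjusted p = 0.012). Its call was lost without CAS129 library 1 (log2 fold change -1.07, adjusted p = 0.065) and without library 2 (log2 fold change -1.34, adjusted p = 0.052). Slc18a3, the transporter that loads acetylcholine into vesicles, stood at 16, 23.2 and 24.6 CPM against 38.1 to 169.95 CPM (median 80.7) (log2 fold change -2.04, SE 0.38, adjusted p = 0.0005). Slc5a7, which brings choline back into the terminal, stood at 54, 46.7 and 52.8 CPM against 68.2 to 138 CPM (median 101) (log2 fold change -0.96, SE 0.20, adjusted p = 0.0013). Ache, which breaks acetylcholine down, was almost absent from CAS129 (1.13, 1.67 and 2.83 CPM against 43.5 to 165 CPM (median 97.4), log2 fold change -5.59, SE 0.55, adjusted p = 2e-06), and it was low in the 129CAS library as well (5.76 CPM). The cholinergic genes named here were all lower.

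Prph, an intermediate filament of neurons with peripheral axons, stood at 125, 146 and 183 CPM in CAS129 and 336 to 1096 CPM (median 576) in BL6 (log2 fold change -1.88, SE 0.37, adjusted p = 0.00073). Gfra1, the receptor for the survival factor GDNF, stood at 16.8, 23.2 and 22.6 CPM against 172 to 538 CPM (median 277) (log2 fold change -3.78, SE 0.40, adjusted p = 3.6e-06). Neither gene overlapped between the groups. Ret, the kinase that signals for Gfra1, stood at 111, 124 and 119 CPM against 111 to 361 CPM (median 205) (log2 fold change -0.76, SE 0.30, adjusted p = 0.043). The Ret call was lost when any of the CAS129 libraries was left out (adjusted p = 0.092 to 0.13), without BL6 library 1, 5 or 6 (adjusted p = 0.058 to 0.066) under upper-quartile scaling (adjusted p = 0.092) or with no filter (adjusted p = 0.051).

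Among the 4 motor neuron genes higher in CAS129 were Slit3, Slit2 and Nkx6-2. Slit3, a secreted guidance ligand that many non-neuronal cells also make, stood at 341, 335 and 328 CPM against 68.2 to 234 CPM (median 141) (log2 fold change 1.36, SE 0.29, adjusted p = 0.0014). Nkx6-2, a homeodomain factor of ventral progenitors (0.50, adjusted p = 0.028), lost its call without CAS129 library 1 (adjusted p = 0.066) or 2 (adjusted p = 0.12), with a replicate block (log2 fold change 0.36, adjusted p = 0.26) and with no filter (adjusted p = 0.05 after rounding). Slit2 (0.46, adjusted p = 0.026) lost its call without CAS129 library 1 or 3 (adjusted p = 0.08 and 0.084) or BL6 library 1 (adjusted p = 0.055), with a replicate block (adjusted p = 0.05 after rounding) and with no filter (adjusted p = 0.052). The count of 4 was 2 without CAS129 library 1, with a replicate block and with no filter.

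Genes of axon growth were lower or not called with few exceptions, and guidance genes went in both directions. Of 31 axon growth and regeneration genes, 2 were higher and 14 lower (9 lower with a replicate block). The shares were 6.45% and 45.2%, against 27% and 32.5% over all genes tested. The 2 higher genes were Dpysl3, a cytoskeletal regulator in growth cones that other cells make too (3631, 3624 and 3868 CPM against 1672 to 2358 CPM (median 1991), log2 fold change 0.88, SE 0.14, adjusted p = 0.00014), and Mmp2, a matrix protease (1796, 1814 and 1904 CPM against 686 to 1245 CPM (median 763), log2 fold change 1.10, SE 0.18, adjusted p = 0.00019). Anxa2, a membrane-binding protein (-0.97, adjusted p = 0.012), lost its call without CAS129 library 2 (adjusted p = 0.05 after rounding) and with a replicate block (adjusted p = 0.13). Of 21 Eph receptors and ephrins, 4 were higher and 6 lower (19% and 28.6%). Of 26 semaphorin, slit and netrin genes, 5 were higher and 6 lower (19.2% and 23.1%). Over all genes tested, the genes set apart included, the shares were 27% and 32.5%. Under upper-quartile scaling both lists had 8 higher and 6 lower, so that the balance turned. In the second list 3 were higher without CAS129 library 1, without BL6 library 1 or with no filter.

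Among the guidance ligands, Sema3c was higher (535, 499.8 and 574 CPM against 110.3 to 264 CPM (median 159), log2 fold change 1.75, SE 0.22, adjusted p = 1.7e-05), as was the ephrin Efnb2 (291, 286 and 306 CPM against 132 to 211 CPM (median 186), log2 fold change 0.77, SE 0.15, adjusted p = 0.00056). The receptors split. Ephb3 was higher (63.3, 63.3 and 85 CPM against 22.3 to 32.5 CPM (median 27.3), log2 fold change 1.35, SE 0.15, adjusted p = 8e-06), while Robo2, a Slit receptor, was lower (12.9, 14.8 and 16.8 CPM against 47.4 to 109 CPM (median 60.4), log2 fold change -2.13, SE 0.27, adjusted p = 2.3e-05). Efna3, another ephrin, was also lower (-2.73, adjusted p = 1.3e-05), with 4.95 CPM in the 129CAS library. Of 18 genes for receptors and effectors of growth inhibition, 9 were lower and 0 higher, with 2 higher under upper-quartile scaling and 1 higher without BL6 library 2 or 4. Among the lower genes were Limk2, a kinase that acts on cofilin (-1.15, adjusted p = 1.4e-05), Lingo1, a co-receptor for myelin inhibitors (-2.16, adjusted p = 0.00027), and Ptprd, a receptor phosphatase (-1.24, adjusted p = 0.00033).

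In the activin and TGF-beta pathway, where secreted ligands bind paired type I and type II receptor kinases and activate Smads, 5 of 27 genes were higher and 8 lower. These shares (18.5% and 29.6%) compare with 27% and 32.5% over all genes tested, the genes set apart included. The balance turned under upper-quartile scaling, with 7 higher and 5 lower, and 3 were higher without CAS129 library 3. Among the ligands, Inhba, the subunit of activin A, was lower, at 294, 251 and 254 CPM in CAS129 and 316 to 1062 CPM (median 687) in BL6 (log2 fold change -1.41, SE 0.32, adjusted p = 0.002). Strain 129, CAST and 129CAS stood at 248 and 172, 243 and 271 CPM, so that BL6 was the group apart for this gene. Tgfb3 was higher (679.7, 729 and 768 CPM against 222 to 541 CPM (median 276), log2 fold change 1.0, SE 0.32, adjusted p = 0.015), and its call was lost without CAS129 library 3 (adjusted p = 0.05 after rounding).

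Among the latent TGF-beta binding proteins, which hold the ligand in the matrix, Ltbp1 stood at 851, 765 and 834 CPM against 155 to 409 CPM (median 366) (log2 fold change 1.28, SE 0.24, adjusted p = 0.0005), and Ltbp2 at 1217, 1160.4 and 1302 CPM against 427 to 825 CPM (median 746) (log2 fold change 0.85, SE 0.21, adjusted p = 0.0035). Both were higher in CAS129. Among the receptors, Acvr1b (-3.12, adjusted p = 1.8e-06), Acvr2a (-1.12, adjusted p = 3.8e-05) and Tgfbr1 (-1.79, adjusted p = 3e-07) were lower. Acvr1b was also low in the hybrid stem cells, at 16.3 and 16 CPM against 74.9 and 85.2 CPM in BL6 stem cells (plain CPM).

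In the BMP pathway, whose ligands act through their own receptors and Smads to switch on Id genes, 4 of 23 genes were higher and 6 lower. Both shares (17.4% and 26.1%) were below those over all genes tested. The ligand Bmp4 was higher, at 154, 155 and 161 CPM in CAS129 and 6.61 to 20.8 CPM (median 11.1) in BL6 (log2 fold change 3.69, SE 0.23, adjusted p = 2e-08). The receptor Bmpr1b was higher too (24, 21.2 and 26.3 CPM against 4.6 to 11.1 CPM (median 5.31), log2 fold change 1.88, SE 0.26, adjusted p = 4.5e-05), as was the signal transducer Smad5 (0.54, adjusted p = 0.0002). The target Id3 went the other way, at 5.66, 3.67 and 5.13 CPM against 101 to 233 CPM (median 161) (log2 fold change -5.15, SE 0.30, adjusted p = 8.8e-09), and Id1 was lower (-1.44, adjusted p = 0.00026). Id3 was near 0 in the 129CAS library (0.99 CPM) and in the hybrid stem cells (0.907 and 1.11 CPM against 60.5 and 35.4 CPM in BL6 stem cells, plain CPM).

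Genes of other spinal cell types were mostly lower or not called. Of 23 spinal interneuron genes, 15 were lower and 1 higher, with a median log2 fold change of -2.25. The higher gene was Foxd3, which had no counts in any BL6 library of either cell type. The number higher was 3 under upper-quartile scaling or without BL6 library 2, and 2 in DESeq2 or without BL6 library 7. Gad1, which makes GABA, stood at 6.15, 7.17 and 7.25 CPM in CAS129 and 11.7 to 119 CPM (median 74.7) in BL6 (log2 fold change -3.26, SE 0.68, adjusted p = 0.0011). Slc32a1, the vesicle transporter of GABA and glycine, stood at 0.971, 4.17 and 3.18 CPM against 8.02 to 111 CPM (median 55.8) (log2 fold change -4.23, SE 0.82, adjusted p = 0.00063). Gata2, a factor of inhibitory interneurons, was lower (-2.88, adjusted p = 3.4e-05). The 129 libraries were low for Gad1 (2.2 and 2.83 CPM) and Slc32a1 (0.824 and 1.92 CPM) too, and the BL6 libraries varied widely.

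Of 31 Hox genes, which set position along the body axis, 3 were higher and 14 lower (median -1.06), with 1 higher without CAS129 library 2. The shares were 9.68% and 45.2%, against 27% and 32.5% over all genes tested. Hoxb9 stood at 45.3, 52.8 and 56.6 CPM against 108 to 148 CPM (median 117) (log2 fold change -1.28, SE 0.13, adjusted p = 3.1e-06), and Hoxb8 was lower as well (-1.06, adjusted p = 0.00013), while the more anterior Hoxb4 was higher (50.5, 53.3 and 65.2 CPM against 28.3 to 46.3 CPM (median 30.4), log2 fold change 0.77, SE 0.15, adjusted p = 0.00077). Hoxc6 was lower (-3.30, adjusted p = 1.6e-07), and stood at 3.69 CPM in CAST and 1.7 CPM in 129CAS. Of the 14 lower Hox genes, 11 were also under every BL6 library in the 129CAS library.

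Of 18 neural progenitor genes, 5 were higher and 7 lower (27.8% and 38.9%, against 27% and 32.5% over all genes tested). With a replicate block the balance turned, with 5 higher and 3 lower, and there were 3 higher and 3 lower without CAS129 library 1 and 3 higher and 4 lower without library 2. Nes, the intermediate filament nestin, stood at 966, 889.95 and 955 CPM against 181 to 537 CPM (median 467) (log2 fold change 1.12, SE 0.26, adjusted p = 0.0021), and Sox1, a neural factor, at 9.87, 22.2 and 7.07 CPM against 0.1 to 1.38 CPM (median 0.394) (log2 fold change 4.59, SE 0.55, adjusted p = 1.2e-05). Hes1, a Notch target, was lower (-2.44, adjusted p = 4.5e-06), with 6.68 CPM in the 129CAS library. Vim, the intermediate filament vimentin of progenitors and mesenchyme, was higher (4979, 4821 and 5063 CPM against 1295 to 4326 CPM (median 2805), log2 fold change 0.78, SE 0.28, adjusted p = 0.028), and its call was lost when any CAS129 library was left out (adjusted p = 0.064 to 0.074) or BL6 library 1 (adjusted p = 0.055). Of 14 sensory neuron genes 3 were higher and 4 lower (21.4% and 28.6%). Of 13 glial genes 2 were higher, Foxd3 among them, and 4 lower (15.4% and 30.8%). Over all genes tested, the genes set apart included, the shares were 27% and 32.5%. With a replicate block 2 glial genes were lower. Of the sensory genes 2 were lower without CAS129 library 1, and 1 was higher with the stricter filter, which left 8.

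Ntrk2, the receptor for BDNF (-1.49, adjusted p = 0.012), lost its call without CAS129 library 1 (adjusted p = 0.057). P2rx3, an ATP receptor of sensory neurons, was lower (-3.56, adjusted p = 7.2e-06). Slc1a2, a glial glutamate transporter, was lower (-2.25, adjusted p = 0.0041); BL6 ran from 17.7 to 115 CPM (median 35.6).

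Mesenchyme and contractile genes were abundant in both groups. Of 22 tested, 8 were higher in CAS129 and 2 lower, with a median log2 fold change of 0.50. The shares were 36.4% and 9.09%, against 27% and 32.5% over all genes tested. The number lower was 1 under upper-quartile scaling or without any one CAS129 library, and 4 without BL6 library 2. Summed levels ran from 69200 to 74100 CPM in CAS129 and from 37600 to 81700 CPM in BL6, so the groups overlapped on the sum. Acta2, smooth muscle actin, stood at 10552, 11092 and 12273 CPM in CAS129 and 2338 to 8277 CPM (median 5104) in BL6 (log2 fold change 1.12, SE 0.32, adjusted p = 0.0091). Myl9, a contractile light chain, stood at 1509, 1514 and 1613 CPM against 322 to 839.97 CPM (median 568) (log2 fold change 1.41, SE 0.23, adjusted p = 0.00017). Fn1, the matrix protein fibronectin and the most abundant of the genes named here, did not pass, at 25638, 23742 and 23129 CPM against 9335 to 27204 CPM (median 16996) (log2 fold change 0.42, SE 0.32, adjusted p = 0.28).

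The collagens Col5a2 (0.78, adjusted p = 0.0028) and Col5a1 (0.67, adjusted p = 0.012) were higher, and Col5a1 lost its call with a replicate block (adjusted p = 0.11). These lists mark cells other than neurons. Their levels moved beside the lower neuronal levels as given here, and their part in that difference was not tested. Of 24 endoderm, trophoblast and epithelium genes, 7 were higher and 5 lower (29.2% and 20.8%, against 27% and 32.5% over all genes tested). The number lower was 3 under upper-quartile scaling, with a replicate block, or without CAS129 library 1 or 2. Dab2, an adaptor of endoderm, stood at 119.6, 101 and 135 CPM against 25.7 to 45.1 CPM (median 36.7) (log2 fold change 1.74, SE 0.16, adjusted p = 1.1e-06), and the keratin Krt18 was lower (-1.67, adjusted p = 0.0076). Of 13 muscle and endothelium genes, 3 were higher and 1 lower (23.1% and 7.69%, against 27% and 32.5% over all genes tested). Among the higher genes was the VEGF receptor Flt1 (1.15, adjusted p = 0.0003). The number lower was 0 without CAS129 library 1 or 2, and 2 with a replicate block, in DESeq2 or without BL6 library 5 or 6.

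**Figure D3:**
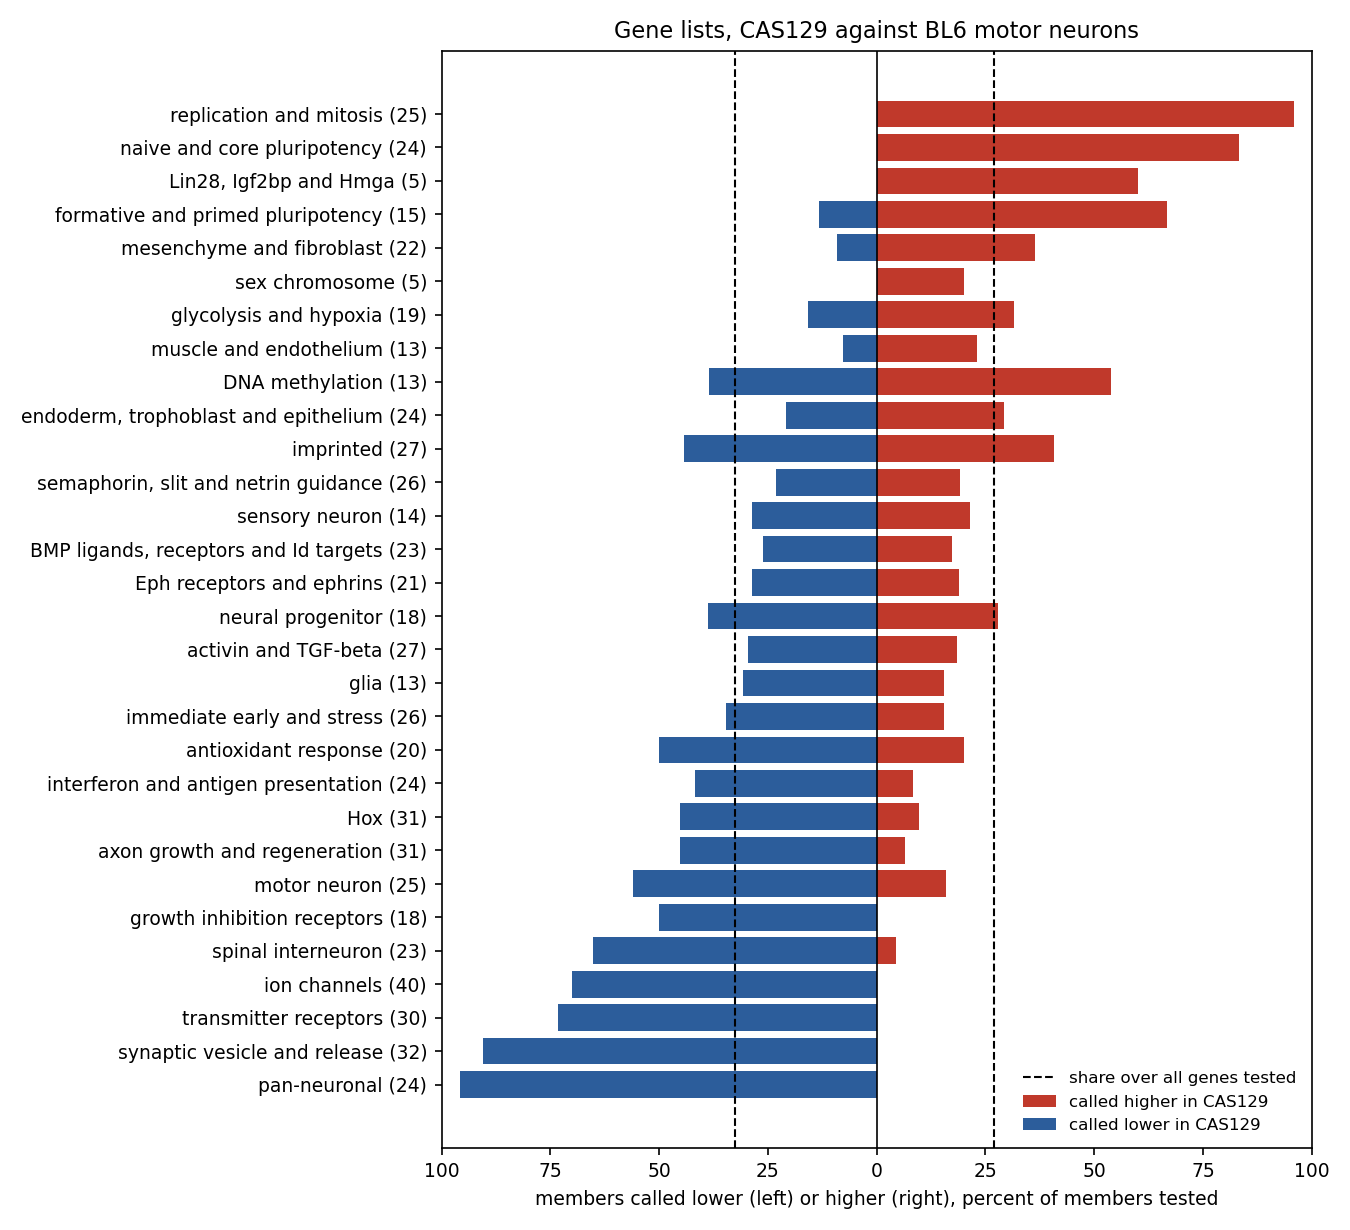
Members of 30 gene lists called higher (red, to the right) or lower (blue, to the left) in CAS129 than in BL6 motor neurons, in percent of members tested and not set apart (number in parentheses). Dashed lines are the shares over all genes tested, the genes set apart included, 27% higher and 32.5% lower. Replication and pluripotency lists reach far beyond the line on the right, and neuronal, synaptic, channel and receptor lists on the left.

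Imprinted genes, expressed from 1 parental allele, changed in both directions, with 11 of 27 higher and 12 lower. The shares were 40.7% and 44.4%, against 27% and 32.5% over all genes tested. Meg3 and Rian are long noncoding RNAs of the Dlk1-Dio3 cluster. Meg3 stood at 574, 550.1 and 1292 CPM in CAS129 and 10.7 to 27.3 CPM (median 15.8) in BL6 (log2 fold change 5.62, SE 0.31, adjusted p = 5.7e-09), and Rian at 1192, 1144 and 1335 CPM against 33.5 to 62.8 CPM (median 52.2) (log2 fold change 4.61, SE 0.18, adjusted p = 2.7e-10). Strain 129 (1178 and 1744 CPM), CAST (1838 CPM) and 129CAS (1727 CPM) were all high for Meg3, so BL6 was the low group. Igf2, a fetal growth factor, stood at 418, 494 and 533 CPM against 14.8 to 57.6 CPM (median 43.1) (log2 fold change 3.63, SE 0.32, adjusted p = 6.5e-07), and Peg3, a zinc finger gene, at 1644, 1691 and 1846 CPM against 620.2 to 1469 CPM (median 973) (log2 fold change 0.78, SE 0.24, adjusted p = 0.013).

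The Peg3 call was lost without CAS129 library 3 (adjusted p = 0.05 after rounding) and with a replicate block (adjusted p = 0.14). Gnas, the stimulatory G protein subunit, was lower, at 57.8, 71.5 and 79.9 CPM against 1791 to 2198 CPM (median 1892) (log2 fold change -4.79, SE 0.17, adjusted p = 1.4e-10), with 287 CPM in 129CAS. It was lower in the hybrid stem cells too (13.4 and 33.6 CPM against 494 and 549.7 CPM in BL6 stem cells, plain CPM). Nnat, a small membrane protein of developing brain, stood at 1.62, 1.5 and 3 CPM against 239.6 to 611 CPM (median 385) (log2 fold change -7.56, SE 0.42, adjusted p = 5.4e-09), and Igf2r, which clears Igf2, was lower (-1.43, adjusted p = 5e-05). Unlike Gnas, Nnat was at least 8-fold below the BL6 mean in the 129CAS library too.

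Among 13 genes for writing, reading and erasing DNA methylation, 7 were higher and 5 lower, and 3 were lower under upper-quartile scaling or without CAS129 library 1 or 2. The shares were 53.8% and 38.5%, against 27% and 32.5% over all genes tested. The maintenance methyltransferase Dnmt1 stood at 167, 172 and 109 CPM against 49.5 to 82.4 CPM (median 70.2) (log2 fold change 1.15, SE 0.17, adjusted p = 8.1e-05), and its partner Uhrf1 at 127, 133 and 53.6 CPM against 2.6 to 9.6 CPM (median 4.51) (log2 fold change 4.20, SE 0.38, adjusted p = 8e-07). Dnmt3l, a cofactor of stem and germ cells, stood at 19.1, 24 and 7.6 CPM against 0.125 to 0.802 CPM (median 0.413) (log2 fold change 5.23, SE 0.44, adjusted p = 3.9e-07), and the dioxygenase Tet1 at 177, 183 and 62.7 CPM against 7.48 to 22.4 CPM (median 10.1) (log2 fold change 3.61, SE 0.34, adjusted p = 1.5e-06). In each of these 4 genes library 3 was the lowest CAS129 library, as for the pluripotency list, and the groups did not overlap. Tet3, another dioxygenase, was lower (-1.15, adjusted p = 6.9e-06).

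Of 20 antioxidant genes 4 were higher and 10 lower (20% and 50%, against 27% and 32.5% over all genes tested). Slc7a11, the cystine transporter that feeds glutathione synthesis, stood at 342, 337 and 309 CPM in CAS129 and 7.36 to 15.6 CPM (median 12) in BL6 (log2 fold change 4.90, SE 0.19, adjusted p = 2e-10). The CAST library was at 576 CPM, while 129CAS was at 3.68 CPM and the 129 libraries at 3.61 and 4.5 CPM. High levels were therefore seen in CAS129 and CAST and not in the other hybrid. Txn1, thioredoxin, was lower (2.75, 1.83 and 3 CPM against 151 to 237 CPM (median 198), log2 fold change -6.29, SE 0.23, adjusted p = 1.5e-10), and Gpx1, a peroxidase, also (-3.66, adjusted p = 8.4e-08). Both were low in 129CAS (2.23 and 18.7 CPM), and in hybrid stem cells Txn1 was at 7.44 and 6.89 CPM against 309.8 and 319.7 CPM in BL6 (plain CPM).

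Of 26 immediate early and stress genes 4 were higher and 9 lower (15.4% and 34.6%, against 27% and 32.5% over all genes tested). Hspb1, a small heat shock protein, stood at 2.75, 2.67 and 0.884 CPM against 229 to 658 CPM (median 467) (log2 fold change -7.77, SE 0.45, adjusted p = 9.6e-09). It was under 1 CPM in 129 (0.178 and 0.137), CAST (0.421) and 129CAS (0.283) as well, so BL6 was the high group. Cdkn1a, a cell cycle inhibitor, stood at 1754, 1854 and 1922 CPM against 548 to 1094 CPM (median 897) (log2 fold change 1.02, SE 0.18, adjusted p = 0.00027), Hspa5, a chaperone of the endoplasmic reticulum, was lower (-1.53, adjusted p = 2.4e-05), and so was Mdm2, the ligase that degrades p53 (-2.71, adjusted p = 9.5e-06). Jund, an AP-1 factor singled out because of its values, was measured at 63.3, 86.3 and 69.1 CPM against 0.2 to 1.12 CPM (median 0.463) (log2 fold change 7.13, SE 0.24, adjusted p = 8.1e-11), and at 203 and 228 CPM in 129 and 234 CPM in CAST.

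Of 19 glycolysis and hypoxia genes 6 were higher and 3 lower (31.6% and 15.8%, against 27% and 32.5% over all genes tested). Pgam1 stood at 717, 769 and 609 CPM against 144 to 229 CPM (median 187) (log2 fold change 1.95, SE 0.14, adjusted p = 6.4e-08), Ldha at 962, 937 and 775 CPM against 415 to 469.97 CPM (median 434) (log2 fold change 1.02, SE 0.10, adjusted p = 1.8e-06), and Eno1 at 1859, 1938 and 1374 CPM against 742 to 1077 CPM (median 807) (log2 fold change 0.97, SE 0.16, adjusted p = 0.00016). These 3 enzymes of glycolysis did not overlap between the groups. Of 24 interferon and antigen presentation genes 2 were higher (1 without CAS129 library 1) and 10 lower. The shares were 8.33% and 41.7%, against 27% and 32.5% over all genes tested. Among the called genes were the peptide transporter Tap1 (0.52, adjusted p = 0.0017) and the ubiquitin-like Isg15 (-3.37, adjusted p = 0.00033), both at low levels. Of 5 sex chromosome genes 1 was higher (20%, against 27% over all genes tested). It was Eif2s3x, an X-linked translation factor subunit (247, 230.3 and 223 CPM against 105 to 135 CPM (median 114), log2 fold change 0.99, SE 0.10, adjusted p = 2.1e-06). Xist, the RNA that silences an X chromosome, was low in both groups (1.46, 0.833 and 1.06 CPM against 0.249 to 1.2 CPM (median 0.927), log2 fold change 0.49, SE 0.44, adjusted p = 0.36).

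The 10 largest rises among genes with counts in both groups and a mean of at least 10 CPM in 1 group were of several kinds. Utf1, Tdgf1, Gdf3 and Fgf4 belong to the pluripotency list, and Platr10 is a noncoding RNA. Utf1 stood at 86.6, 108 and 39.8 CPM in CAS129 with 1 count in all BL6 libraries, a ratio of 4790 (95% counting interval 859 to 189000). The ratio was 1200 (95% counting interval 214 to 47400) for Gdf3, 1170 (95% counting interval 208 to 46200) for Fgf4 and 1210 (95% counting interval 217 to 48100) for Platr10, each on 1 BL6 count. Nnt, the mitochondrial transhydrogenase (ENSMUSG00000025453, chromosome 13, 119335448 to 119408997), stood at 148, 155 and 162 CPM against 0.131 to 0.401 CPM (median 0.249) (log2 fold change 9.16, SE 0.17, adjusted p = 2.6e-12). C57BL/6J mice are known to carry a deletion in Nnt. The 129, CAST and 129CAS libraries stood at 64.5 and 51.9, 50.5 and 70.5 CPM.

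The other 4 were Rps10, a ribosomal protein (849.8, 830.1 and 769 CPM against 1.18 to 3.01 CPM (median 1.41), log2 fold change 8.96, SE 0.20, adjusted p = 9.3e-12), the transcription factor subunit Taf9 (ratio 609 (95% counting interval 207 to 2960) on 3 BL6 counts), and the gene models Gm10184 and Gm5093. Rps10 stood at 166 and 139.6 CPM in 129, 89.5 CPM in CAST and 265 CPM in 129CAS. Genes at least 8-fold higher with a mean of at least 10 CPM in CAS129 (185) overlapped an exon of another gene on the same strand in 20% of cases, against 6.81% of genes not called. More than 10% of their 50-base words were shared with another gene in 18.4%, against 3.59%. How such reads were assigned is not described in the sources used.

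The 10 largest falls were Csf1, Cdk5r2, Plp2, Abl1, Sf3b3, Cct7, Prr14, Smyd5, Gm20721 and Sf3b4. They were nearly without counts in CAS129. Csf1, a macrophage growth factor, stood at 0.324, 0 and 0.53 CPM against 150.01 to 964 CPM (median 453). Cct7, a chaperonin subunit of all cells, stood at 0.485, 0.833 and 0 CPM against 298 to 352 CPM (median 337). Abl1, a tyrosine kinase, was at a ratio of BL6 to CAS129 of 1450 (95% counting interval 402 to 12000), on 2 CAS129 counts, and the splicing factor subunit Sf3b3 at 1400 (95% counting interval 388 to 11600), also on 2 counts. Cdk5r2, an activator of the neuronal kinase Cdk5, was at 2290 (95% counting interval 411 to 90600) on 1 count.

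Abl1, Sf3b3 and Cct7 are used by most cells, and in 129CAS they stood at 0.424, 0.566 and 0.0707 CPM. In the CAS129 stem cells they were at 0.544 and 1.33, 1.45 and 5.34 and 0.544 and 0.222 CPM, against 137 and 159, 532 and 518 and 846 and 989 CPM in BL6 stem cells (plain CPM). Gm20721, an unnamed gene model, stood at 2.27, 3.83 and 3.71 CPM against 1677 to 1953 CPM (median 1729), with 0.534 and 0.388 CPM in 129 and 2950.3 CPM in CAST. Plp2, on chromosome X, was at 0 in CAST but at 51.4 CPM in 129CAS.

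Large falls were shared with hybrid stem cells. Of 367 genes at least 8-fold lower in CAS129 motor neurons, with counts there and at least 10 CPM in BL6 motor neurons, 253 also had at least 10 CPM in BL6 stem cells. Of these, 218 (86.2%) were at least 8-fold lower in CAS129 stem cells too. The share was 2.95% among genes that fell by less and 0.639% among genes not called. Only Syp of the 23 lower pan-neuronal genes, and Syn1, Sv2a and Dnm1 of the 29 lower synaptic genes, were at least 8-fold lower in CAS129, so the neuronal lists rest mainly on smaller differences. In the 129CAS library, 22 of the 23 pan-neuronal genes stood above every CAS129 library.

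Of the 10679 genes set apart, 916 were tested, and 811 of those were called. At least 10 CPM on average in BL6 motor neurons was reached by 478 of them, 50 CPM by 211 and 100 CPM by 94. This is a description, since the 0 counts chose them. A count of 0 over the 3 libraries allows up to 3 counts, or 0.168 CPM, and folds are lower bounds against that level, for counting error only. The most abundant in BL6 were Ccn2, a matricellular growth regulator (2448 ± 776 CPM, SD, n = 7, at least 14600-fold lower), mt-Cytb and mt-Nd5, which are encoded in mitochondrial DNA (at least 14000-fold and 9770-fold), and the cytoskeletal actin Actg1 (2281 ± 378 CPM, SD, n = 7, at least 13600-fold). Tmsb10, Peg10, Ccn1, Mprip, Mapt and Sept11 followed, at least 5560-fold, 5150-fold, 4920-fold, 4370-fold, 3910-fold and 3030-fold lower.

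**Figure D4:**
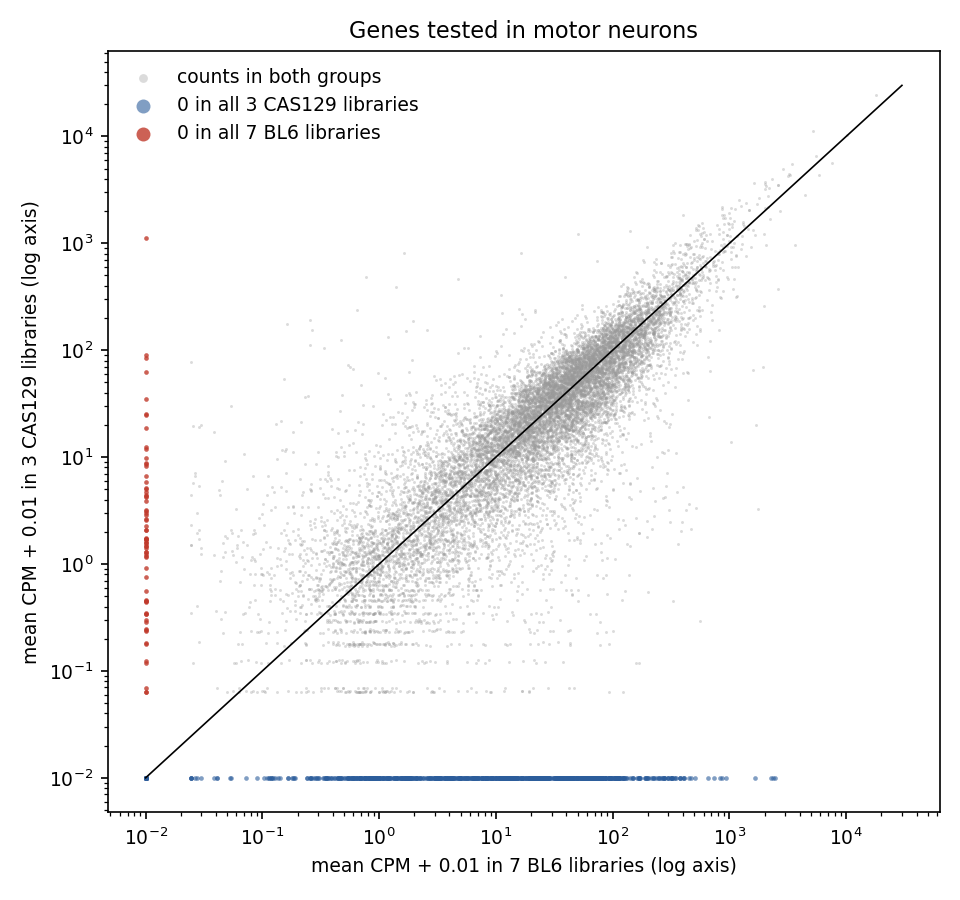
Mean level of each gene tested in CAS129 (3 libraries, vertical) against BL6 (7 libraries, horizontal) motor neurons, in CPM plus 0.01 on log axes. Each point is a gene and the line marks equal levels. Genes at 0 in all CAS129 libraries (blue) lie along the bottom up to 2448 CPM in BL6, while those at 0 in BL6 (red) are few above 10 CPM, with 1 at 1118 CPM.

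Actg1 is used by nearly every cell, and Mapt, the axonal protein tau, is a standard neuronal gene. The other libraries were counted for the same 478 genes. All counts were 0 in the CAS129 stem cells for 457 (95.6%) and in the 129CAS motor neurons for 445 (93.1%). In the 129 motor neurons the number was 9 (1.88%), in CAST motor neurons 8 (1.67%), in CAST stem cells 11 (2.3%) and in BL6 stem cells 2 (0.418%). Among the 9315 other genes with at least 10 CPM in BL6 motor neurons, the shares were 2.42% in CAS129 stem cells and 0.44% in the 129CAS library. For most of the set the 0 counts thus went with the hybrid libraries of both cell types. The 129 and CAST libraries had counts for nearly all of the genes. Among the most abundant, mt-Cytb and Fau were exceptions, at 0 in the 129 and CAST motor neurons too. In 129 motor neurons mt-Nd5 averaged 63.8 CPM and Rps27 0.833 CPM, with 731 and 106 CPM in CAST.

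**Figure D5:**
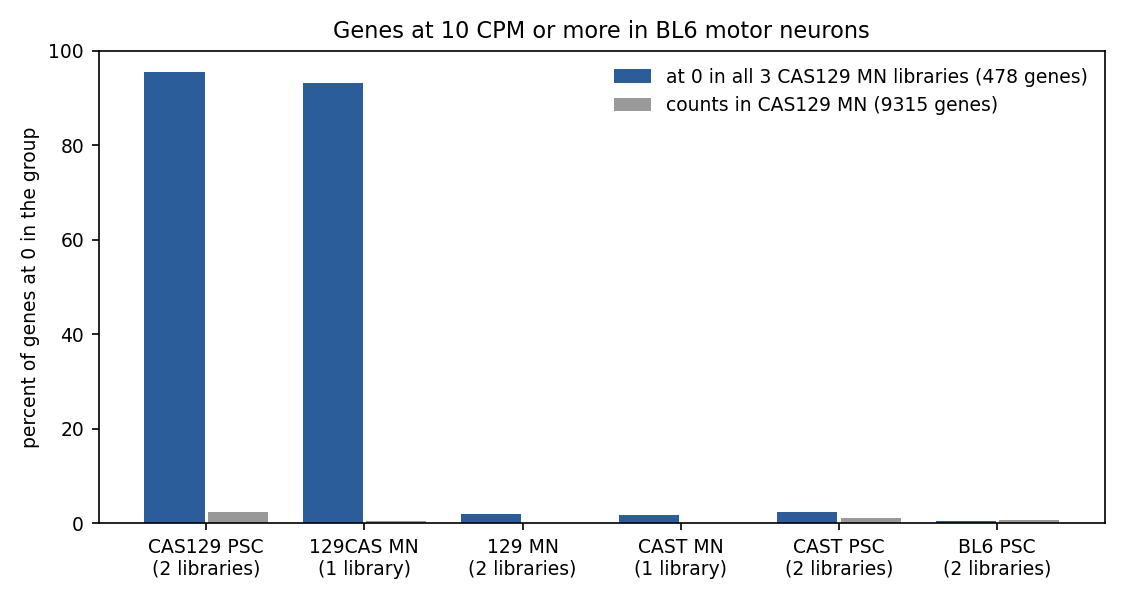
Percent of genes at 0 in every library of a group, for the 478 genes set apart that have at least 10 CPM in BL6 motor neurons (blue) and the 9315 others at that level (grey). Blue bars exceed 90 percent in the CAS129 stem cells and the 129CAS motor neurons and stay under 3 percent in the 129, CAST and BL6 groups.

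The set contains whole groups of genes with a common symbol. All 10 genes tested with the symbol Sept (septins) and all 10 with March (ubiquitin ligases) were at 0 in CAS129. So were all 11 with Seleno (selenoproteins), all 5 with Ccn and 2 of the 3 mitochondrial genes tested. Genes of these families under other symbols were not counted here. Of 72 genes for cytosolic ribosomal proteins, 5 were at 0 (Rpl11, Rpl27, Rpl13a, Rpl36a and Rps27). In the set, 84 of the 465 genes with a RefSeq entry (18.1%) bear another symbol in RefSeq than in GENCODE M21, as Sept11 is Septin11 there. The same was true of 35 of 9181 (0.381%) of the other genes. More than 50% of the 50-base words were shared with another gene in 19 of 478 (3.97%), against 0.268%. The part of gene names and of shared sequence in the 0 counts was not tested. The lists above leave these genes out, among them Lhx3 and Olig2 of the motor neuron list, Map2 and Mapt of the pan-neuronal list, Pcna and Tyms of the replication list and Hmga1.

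The converse set was smaller. Of 115 genes tested with 0 counts in all 7 BL6 libraries, 10 had a mean of at least 10 CPM in CAS129. Myadm, a membrane protein, stood at 1094, 1069.9 and 1189.7 CPM in CAS129, at least 22600-fold above the BL6 limit of 0.0494 CPM, and at 679 and 522 CPM in 129 and 331 CPM in CAST. Gm5814, Ado, Raver1 and B4gat1 followed, at 90.4 ± 9.78 CPM, 84.4 ± 7.08 CPM, 62.7 ± 8.63 CPM and 35.1 ± 3.43 CPM (SD, n = 3). All 5 had counts in the 129, CAST and 129CAS libraries. In the BL6 stem cells Myadm had 1 count and the other 4 had 0, so that these 0 counts went with BL6 libraries of both cell types.

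For a few genes at 0, another gene that shares sequence with them was high in CAS129. Kpna2, the nuclear import receptor importin alpha (chr11:106988629-106999541, minus strand, GRCm38), was at 0 in CAS129 and at 92.5 CPM in BL6. Gm10184, a gene model on chromosome 17 that shares 94.07% of its 50-base words with Kpna2, stood at 209, 216 and 145 CPM against 0 to 0.759 CPM (median 0.249). The 129CAS library had it at 99.6 CPM, while 129 had 2.58 and 1.71 CPM and CAST 3.58 CPM. The 2 coding sequences differ at 2 of 1587 aligned bases (99.9% identity). The stretch below shows both differences, the only ones between the aligned coding bases of the 2 reference transcripts. The CAST and 129 alleles of the 2 genes were not examined. It holds coding bases 634 to 753 of Kpna2, from GENCODE M21 transcripts, and capitals mark the bases A696G and C741T, counted from the first coding base of Kpna2.
Kpna2: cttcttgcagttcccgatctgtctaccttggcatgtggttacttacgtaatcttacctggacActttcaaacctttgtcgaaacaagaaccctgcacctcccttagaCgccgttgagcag
Gm10184: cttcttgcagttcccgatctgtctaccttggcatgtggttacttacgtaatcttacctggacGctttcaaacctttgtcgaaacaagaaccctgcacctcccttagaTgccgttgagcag
The Gm10184 stretch lies at chr17:89909564-89909683 on the minus strand.

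In other pairs less of the sequence was shared. They were the ribosomal protein gene Rpl11 (315 CPM in BL6, 0 in CAS129) with the pseudogene Gm5093 (511, 508 and 436 CPM against 0.275 to 1.3 CPM (median 0.695)), which has 26.96% of its words in Rpl11, Lrrc8a, a subunit of volume-regulated anion channels, with Gm28035 (66.98%), and the kinase Ak6 with Taf9 (68.65%). Of 12 genes at 0 with at least 20% of their words in 1 other gene that was tested, 11 had a partner that was called. Of these partners 3 were higher and 8 lower in CAS129, and 7 of the 8 were themselves at 0 in every CAS129 library. Levels of both members of a pair are uncertain, since reads can be split between them in ways that the sources used here do not give.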

How the data were processed

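Read counts per gene, deposited by the authors as whole numbers with no normalization, were analysed. Per the submitters' processing notes, STAR and GRCm38 (mm10) were used. Not given in the sources used here are the counter, its annotation and strand setting, and the genome to which hybrid reads were aligned. Of 28 count columns 20 were matched to samples by name and 8 were not used, and 7 samples with no matched column were not analysed here.

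Genes with at least 1 CPM in at least 2 of 14 motor neuron libraries were tested with edgeR 4.0.16 (TMM scaling, glmQLFit, glmQLFTest, 2-sided, R 4.3.3) on group means, threshold 0.05. A standard error is the size of the log2 fold change over the root of its F statistic. On counts simulated for 14209 genes, 85.7% and 87.5% of genes changed by -1 and 1 on the log2 scale were recovered, and 0.0785% of unchanged genes were called. The simulation gave every gene and group the same spread, so these rates need not hold for genes that vary more between libraries. Positions and transcripts are from GENCODE M21, and alternative symbols from RefSeq (GRCm38.p6). Shared sequence was counted as 50-base words. Intervals and limits cover counting error only.

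Named were Pou5f1, Syp, Stmn2, Top2a, Inhba, Isl1, Chat, Mnx1, Tubb3, Meg3 and Xist, called members of 30 lists with the highest levels, the 10 largest rises and falls, and the most abundant genes at 0 in a group; some genes that the rule names are not reported here. Other members are named to describe a role or an exception, after their values were seen. Groups, members and lists were chosen with earlier results of these data known. Alternatives were other scalings (RLE, upper quartile), DESeq2 1.42.0, other filters, fewer libraries or genes, a replicate block, and a fit of protein-coding genes without overlap or shared sequence, the last chosen after seeing the data.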

Additional observations from a re-analysis of the deposited data

Results flagged for a closer look

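Single BL6 motor neuron libraries stood far from the other 6 in 33 of the 159 genes whose values are given, by the gap to the nearest library as a share of the range. For normally distributed values the rule marks about 1 in 20 such groups by chance, and the genes are not independent of each other. Fgf4, Gdf3, Platr10 and Utf1, with 1 count over all BL6 libraries, are marked by construction. BL6 library 2 was the one apart in 24 of the 33, and libraries 1, 3, 4, 5, 6 and 7 in 1, 0, 2, 2, 1 and 3.

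BL6 library 2 was highest in most neuronal genes marked, with each value beside the next library: Atp6v0a1 (411 CPM, next 298), Cacna1a (184 CPM, next 115), Cacna1b (202 CPM, next 106), Cdk5r2 (263 CPM, next 126), Dnm1 (329 CPM, next 186), Grin1 (157.5 CPM, next 83.2), Grin2b (139 CPM, next 60.1), Map1b (3298 CPM, next 1962), Prph (1096 CPM, next 623), Slc18a3 (170.0 CPM, next 89.5), Stx1a (79.8 CPM, next 50.6), Sv2c (353 CPM, next 181) and Syn1 (327 CPM, next 175). It was also highest in Acvr2a (66.4 CPM, next 52.4), Dnmt3a (194 CPM, next 125), Gm20721 (1953 CPM, next 1775), Lingo1 (141 CPM, next 71.5), Ntrk2 (155 CPM, next 68.7), Ptprd (115 CPM, next 74.8), Robo2 (109 CPM, next 71.5), Slc1a2 (115 CPM, next 46.4) and Tet1 (22.4 CPM, next 12.5). It was lowest in Ccn2 (834.5 CPM, next 2296) and Col5a2 (866 CPM, next 1308), which mark mesenchyme or matrix. Without this library, 9120 genes were called in place of 8835, with 4098 higher and 5022 lower. Of the lists, 20 naive pluripotency and 24 replication genes higher and 23 pan-neuronal genes lower were called. Its part in the spread of the neuronal genes was not tested further.

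In the other libraries, Hoxb4 was highest in library 7 (46.3 CPM, next 35.1), Rps10 was highest in library 6 (3.01 CPM, next 1.65), Sema3c was highest in library 4 (264 CPM, next 176) and Tgfbr1 was lowest in library 7 (62.1 CPM, next 88.5). Of genes near 0 in BL6, Dppa3 reached 0.542 CPM in library 5, Fgf4 reached 0.132 CPM in library 4, Gdf3 reached 0.108 CPM in library 5, Platr10 reached 0.138 CPM in library 7 and Utf1 reached 0.1002 CPM in library 1. With CAS129 at 3 libraries, no such rule was applied to that group.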

How the results depend on the processing

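Over all genes, 8835 calls in the design as fixed compare with 8821 under RLE scaling, 9090 under upper-quartile scaling, 9224 in DESeq2, 8596 with no filter, 7906 with a stricter filter, 8509 with only the 10 libraries and 7955 without the genes set apart. Leaving out a library gave 7439 to 9120 calls, 3376 to 4098 of them higher and 4063 to 5022 lower. Leave-one-out counts of list members were 20 to 21 naive pluripotency genes higher, 22 to 24 replication genes higher, 18 to 23 pan-neuronal genes lower, and in the motor neuron list 2 to 4 higher and 10 to 14 lower, with 0 in the opposite direction for the first 3 lists. Motor neuron genes called higher were 2 with no filter and 2 with the replicate block, against 4. In the fit of 5783 protein-coding genes with no exon overlap, no shared 50-base word and counts in both groups, chosen after seeing the data, 2854 genes were called, 1375 higher and 1479 lower. There, 7 of 8 naive pluripotency genes and 10 of 10 replication genes were higher, 9 of 10 pan-neuronal genes were lower, and of 14 motor neuron genes 2 were higher and 8 lower; the smaller counts follow from fewer genes tested. Genes at 0 in CAS129 numbered 478 at 10 CPM in BL6, 716 at 1 CPM, 211 at 50 CPM, and 474 to 488 with a library left out. Replicate numbers are shared by 3 pairs, but nothing says that they pair cultures, and deviations of same-numbered libraries correlated at -0.071, 0.028 and -0.132. With the replicate block, 7738 genes were called, 3459 higher and 4279 lower, with 21 naive pluripotency and 22 replication genes higher, 23 pan-neuronal genes lower and 15 motor neuron genes lower. Signs reversed only in genes that were not called: Ccnd1 (0.78 with the block, -0.32 to 0.07 leaving out a library), Syn3 (0.03 with the block) and Stx1a (-0.01 to 0.27 leaving out a library), in log2 fold change; the cause was not tested. Depth limits the low genes, since 3 counts over the 3 CAS129 libraries equal 0.168 CPM.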
